A study of Mus musculus with 42 samples.

Results

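The cytosolic ribosomal protein genes encode the proteins of the ribosome that translates nuclear mRNAs. They were taken here as every gene symbol made of Rpl or Rps followed by a number and at most a letter and a further digit, together with Rplp0, Rplp1, Rplp2 and Rpsa. The rule gave 83 of the 20661 genes in the tables, 51 of the large subunit and 32 of the small subunit. It used symbols only and no measured value. It misses some ribosomal proteins with other symbols, of which Fau, Rpl36al and the small-subunit protein Rack1 were followed separately.

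The study measured RNA from mouse brain and spinal cord in 42 libraries, deposited as 3 tables. In the first table, RNA bound to ribosomes of mature oligodendrocytes, the myelinating glia, was pulled down by translating ribosome affinity purification (TRAP) from frontal cortex (n = 7), subcortical white matter (n = 6), cerebellum (n = 6) and spinal cord (n = 5). The second table holds whole frontal cortex of rTg4510-negative (n = 3) and rTg4510-positive (n = 3) mice, with an 8 month mark in the titles. In rTg4510 mice a mutant human tau transgene is driven in forebrain neurons through a Camk2a-tTA activator. The third holds whole prefrontal cortex of wild-type mice (genotype label miR-142, n = 4), miR-142 heterozygotes (n = 4) and miR-142-null mice (n = 4), with no age given. The tagging line of the TRAP mice, their strain and age are not given in the sources used here. The miR-142 gene itself was not matched by symbol, so the genotypes were not checked on it. The labels do not say whether the libraries came from separate animals, so all p-values measure the spread between libraries. Fewer cells of a type and less RNA per cell cannot be told apart in any of these bulk samples.

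Each ribosome carries a single copy of most of these proteins, and their synthesis takes a large share of a growing cell's translation. Their mRNAs are short and mostly begin at a C within a run of pyrimidines, the terminal oligopyrimidine (TOP) motif, through which mTOR signalling and the RNA-binding protein Larp1 control how many ribosomes they carry. In TRAP, the ribosome is also the handle by which RNA is captured. The values of the members are of their mRNAs and do not measure the amount of ribosomes. In oligodendrocytes, ribosomes serve the synthesis of myelin proteins.

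RefSeq start sites (GRCm38.p6) were found for 63 of the 83 members in 75 entries. A C within 3 bases of the listed start, followed by 4 or more C or T, stood in 26 of these 75 (34.7%) and in 11.5% of all 32851 entries. In the 300 bases around the start, CTCTTTC on either strand was in 28% of member entries and 8.16% of all, CCGGAAG in 36% and 8.86%, and TATAAA in 9.33% and 13.6%. The windows below are shown because they belong to the members with the highest and the lowest spinal cord to cortex differences among those with a single entry. They hold 15 bases on either side of the start, and capitals mark runs of 5 or more pyrimidines. The first 3 belong to the highest differences and the last 3 to the lowest.
Rplp2, chr7:141447636-141447665, plus strand: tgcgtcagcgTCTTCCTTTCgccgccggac
Rpl38, chr11:114668565-114668594, plus strand: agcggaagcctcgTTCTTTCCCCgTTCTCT
Rpl41, chr10:128549154-128549183, minus strand: cacacgggccggctcggaagtgacgacacc
Rpl5, chr5:107900513-107900542, plus strand: tctcacgtcgcttgcgtgctggtggtgcta
Rps15a, chr7:118116133-118116162, minus strand: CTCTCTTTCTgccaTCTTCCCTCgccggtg
Rpl26, chr11:68901551-68901580, plus strand: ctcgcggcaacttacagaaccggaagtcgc
Pyrimidine runs stood at the start of Rplp2 and Rpl38, whose differences were high, and of Rps15a, whose difference was near 0. The median spinal cord to cortex difference was 1.59 on the log2 scale in the 25 tested members with the feature at their start (0.10 to 3.32) and 1.45 in the 35 without it (-0.10 to 2.71). A missing match says only that these letters are not in the window.

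Ribosomal protein reads took a larger share of the spinal cord libraries than of any other TRAP library. The share of counted reads in the 83 genes was 0.676%, 0.834%, 0.606%, 1.17% and 0.681% in spinal cord replicates 3, 4, 5, 7 and 8. The lowest, median and highest shares were 0.220%, 0.261% and 0.542% in cortex. White matter libraries lay at 0.312%, 0.352% and 0.573% by the same order, and cerebellum libraries at 0.248%, 0.385% and 0.401%. No spinal cord library overlapped the other regions. The nearest were white matter replicate 2 and cortex replicate 7, and the cortex library stood apart from the other 6, which lay between 0.220% and 0.287%. In whole frontal cortex the share was 1.11%, 1.12% and 1.15% in rTg4510-negative and 1.17%, 1.22% and 1.26% in rTg4510-positive libraries. In whole prefrontal cortex it was 0.854%, 0.892%, 0.868% and 0.931% in wild type, 0.927%, 0.846%, 0.912% and 0.921% in heterozygotes, and 1.0001%, 0.850%, 1.03% and 0.966% in null libraries. The tables were made separately, so these shares are set side by side across tables without a comparison.

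**Figure D1:**
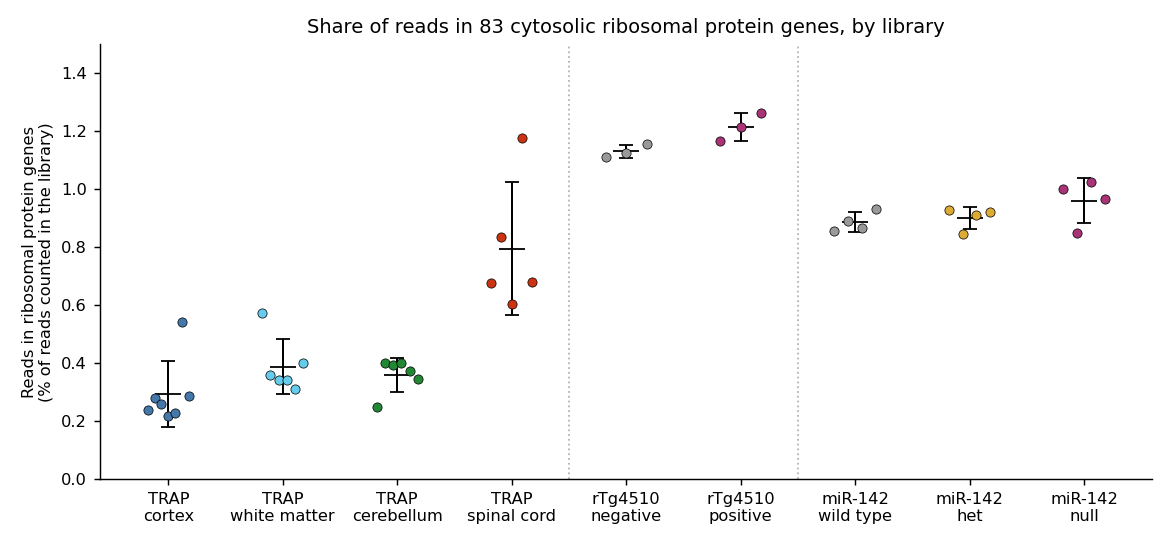
Share of counted reads in the 83 cytosolic ribosomal protein genes (y axis, percent) in each of the 42 libraries (points), by group (x axis), with the group mean and SD; dotted lines part the 3 tables. The 5 spinal cord libraries lie between 0.606% and 1.17%, above the other 19 TRAP libraries, and cortex replicate 7 at 0.542% stands above the other cortex libraries.

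Depth, in M (mega) counted reads, was 3.26 to 12.99 for spinal cord, 5.80 to 24.7 for cortex, 7.36 to 16.5 for white matter, 12.02 to 36.8 for cerebellum, 13.9 to 27.0 for the rTg4510 table and 22.8 to 31.8 for the miR-142 table. Spinal cord replicates 7 (3.26 M) and 4 (8.54 M) had the highest shares of ribosomal protein reads in that group. Oligodendrocyte markers (Mbp, Mog, Mag, Cnp and Mobp) summed to 22742 to 27029 RPKM in spinal cord, 2859 to 5652 in cortex, 5856 to 22513 in white matter and 3220 to 17473 in cerebellum. Neuron markers summed to 4453 to 10935 RPKM in cortex and 3885 to 6095 in spinal cord, so the TRAP libraries also held neuronal RNA. Astrocyte markers summed to 1884 to 4241 RPKM in cortex and 1635 to 2912 in spinal cord. In whole rTg4510-negative frontal cortex the sums were 5962 to 6337 (neuron), 3314 to 3479 (astrocyte) and 2234 to 3473 (oligodendrocyte). The neuron and astrocyte ranges of TRAP cortex include these, so its values are not of oligodendrocyte RNA alone. RNA integrity numbers were 6.1 to 9.5 over all samples, and are not given per library. Of the 83 members, 80 passed the filter on low values in all 3 tables, and the paralogs Rpl10l, Rpl3l and Rpl39l did not.

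Most ribosomal protein mRNAs were higher in spinal cord than in cortex TRAP libraries. With limma on log2(RPKM + 0.5) and Benjamini-Hochberg adjustment over all 13982 genes tested, 66 of 80 members were higher and 0 lower at an adjusted p under 0.05, beside 16.2% of all genes called higher and 27.5% lower. The median member difference was 1.58 and that of all genes -0.33 on the log2 scale. Of the small-subunit members, 30 of 32 rose (median 1.82), and of the large-subunit members 36 of 48 (median 1.52). Over all 4 regions, 65 of 80 members differed (limma F test, adjusted p under 0.05), beside 47.1% of all genes. All 5 spinal cord libraries lay above all 7 cortex libraries for 34 members, beside 6.75% of all genes.

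The acidic stalk of the large subunit recruits elongation factors, and it consists of Rplp0, which anchors dimers of Rplp1 and Rplp2. Rplp2 had the largest difference of all members. It was at 432, 752, 716, 933 and 531 RPKM in spinal cord replicates 3, 4, 5, 7 and 8, and at 38.0 (lowest), 59.96 (median) and 152 (highest, replicate 7) in cortex. The groups did not overlap, and the difference was 3.32 (SE 0.29, limma adjusted p = 7.9e-10). Rplp1 was at 700, 841, 610, 1172 and 646 RPKM in spinal cord and at 104, 134 and 191 (lowest, median, highest) in cortex, a difference of 2.48 (SE 0.25, limma adjusted p = 7.9e-09). Their anchor Rplp0 was at 94.4, 63.5, 71.5, 149 and 82.4 RPKM in spinal cord and at 35.6, 50.4 and 135 in cortex. The Rplp0 groups overlapped through cortex replicate 7, and its difference of 0.63 (SE 0.27, limma adjusted p = 0.064) was not called. Without that library it was 0.83 (limma adjusted p = 0.0064), and with the coding length trend removed 0.84 (limma adjusted p = 0.0086). Coding lengths were 951 bases for Rplp0, 342 for Rplp1 and 345 for Rplp2.

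Short large-subunit proteins were among those that rose most. Rpl38, linked in mouse mutants to patterning of the axial skeleton, was at 366, 512, 307, 670 and 353 RPKM in spinal cord and at 29.6, 38.3 and 208 (lowest, median, highest) in cortex. The groups did not overlap even with cortex replicate 7 at 208, and the difference was 3.12 (SE 0.37, limma adjusted p = 1.6e-07). Rpl41, whose coding sequence of 75 bases encodes one of the smallest known proteins, had the highest mean level per length of all members in all 9 groups. It was at 2940, 4271, 2735, 4283 and 2381 RPKM in spinal cord and at 327, 405 and 2089 in cortex, where replicate 7 again was far above the other libraries (up to 438). Every spinal cord library lay above it, and the difference was 2.71 (SE 0.35, limma adjusted p = 6.1e-07). Rpl11, which with Rpl5 and the 5S RNA binds Mdm2 when ribosome assembly is disturbed, rose by 1.46 (limma adjusted p = 9.8e-05).

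The partner Rpl5 did not follow. It was at 76.4, 81.3, 68.0, 128 and 90.7 RPKM in spinal cord and at 68.7, 92.4 and 165 (lowest, median, highest) in cortex. The groups overlapped fully, and the difference was -0.10 (SE 0.27, limma adjusted p = 0.80), the only negative one among the 80 members. Rpl4, at a mean of 257.9 RPKM the second highest member in cortex, differed by 0.38 (not called), and Rpl10a by 0.31 (SE 0.31, limma adjusted p = 0.44). Rpl10a is the ribosomal protein most often tagged for TRAP in mice. It was at 41.04, 27.2, 16.9, 91.3 and 59.7 RPKM in spinal cord and at 20.7, 33.6 and 48.9 in cortex, and the part of a tagged transgene in these values was not tested. The other large-subunit members that were not called were Rpl34 (0.14), Rpl30 (0.21), Rpl26 (0.29), Rpl27a (0.50), Rpl7l1 (0.53), Rpl29 (0.62), Rplp0, Rpl12 (0.68) and Rpl10 (0.72).

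In the small subunit, Rps21 led with 388, 358, 284, 507 and 496 RPKM in spinal cord against 35.1, 49.1 and 97.2 (lowest, median, highest) in cortex. No library overlapped, and the difference was 2.89 (SE 0.29, limma adjusted p = 1.2e-08). Rps20 differed by 2.76, Rps29 by 2.69 and Rps27a, made as a fusion with ubiquitin, by 2.63, all called. Rpsa, the laminin receptor precursor that sits at the head of the subunit, was at 209, 289, 153, 533 and 229 RPKM in spinal cord and at 45.8, 56.7 and 144 in cortex. The lowest spinal cord library lay just above cortex replicate 7, and the difference was 1.98 (SE 0.29, limma adjusted p = 3.1e-06). Rps6, the substrate of S6 kinase whose phosphorylation is used as a readout of mTOR activity, was at 68.4, 87.0, 61.0, 132 and 62.9 RPKM against 19.5, 26.1 and 41.6 in cortex. It rose by 1.52 (SE 0.27, limma adjusted p = 5.8e-05) without overlap.

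The 2 small-subunit members that were not called were Rps15a and Rps2. Rps15a was at 248, 201, 325, 275 and 287 RPKM in spinal cord and at 202, 225 and 366 (lowest, median, highest) in cortex, with full overlap and a difference of 0.10 (limma adjusted p = 0.78). Its mean in cortex of 250.5 RPKM came just after that of Rpl4. Rpl26 and Rpl34, also not called, had low means in cortex, of 2.06 and 10.6 RPKM. The part of the level in the differences was not tested. The smallest differences still called were those of Rpl3 at 0.78 (limma adjusted p = 0.015), Rpl6 at 0.96 and Rps4x at 0.98. Rps19, a gene mutated in Diamond-Blackfan anaemia, rose by 1.27 (limma adjusted p = 0.015). Without spinal cord replicate 7 neither Rpl3 (0.61, limma adjusted p = 0.054) nor Rps19 (0.92, limma adjusted p = 0.069) was called.

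**Figure D2:**
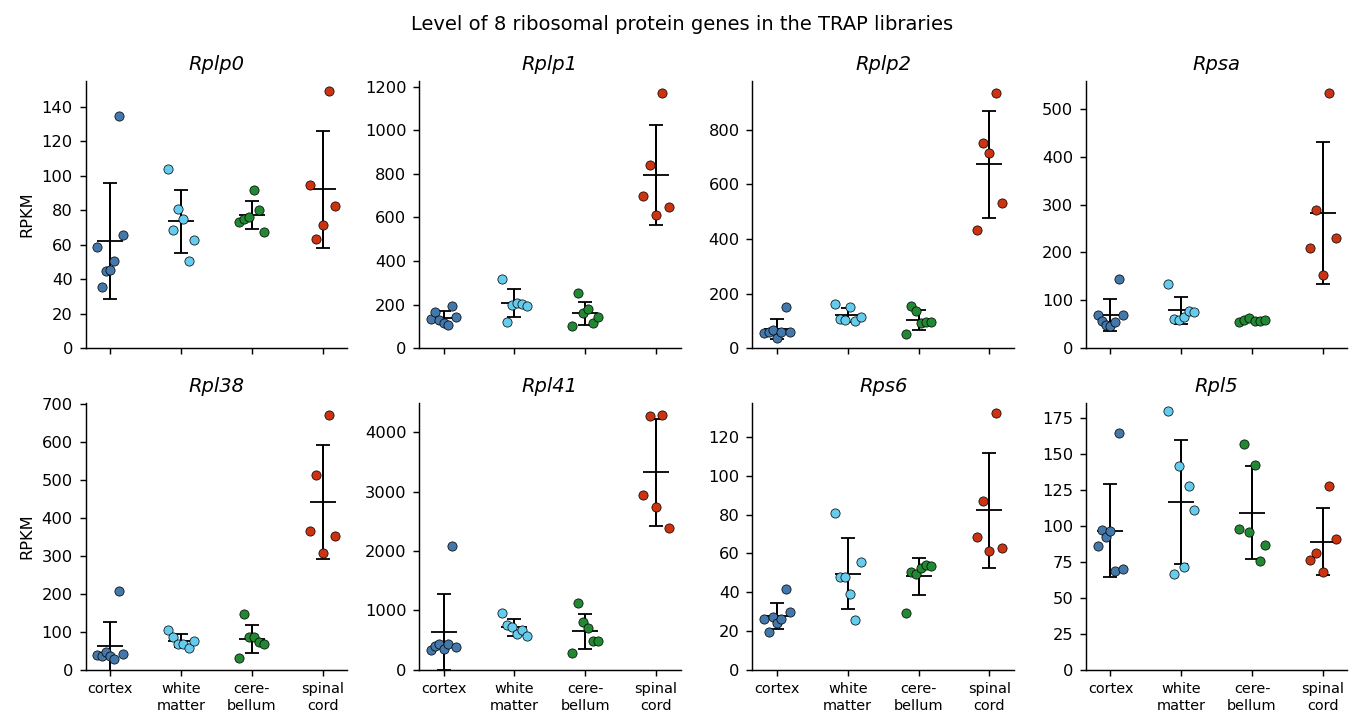
RPKM (y axis, linear, each panel with its own scale from 0) of 8 ribosomal protein genes in the TRAP libraries of the 4 regions (x axis); points are libraries, with the mean and SD, and bars that would pass below 0 are clipped there. Rplp1, Rplp2, Rpl38 and Rps6 do not overlap between spinal cord and cortex, while Rplp0 and Rpl5 do.

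Members were also higher in spinal cord than in the other 2 TRAP regions. These comparisons share the spinal cord libraries with the comparison above. Against white matter, 56 of 80 members were higher and 0 lower (limma adjusted p under 0.05), beside 8.97% of all genes called higher and 18.7% lower, with a median of 1.07. Against cerebellum, 57 of 80 were higher and 0 lower, beside 7.57% of all genes higher and 15% lower, with a median of 1.15. Libraries did not overlap for 32 members against white matter (3.48% of all genes) and for 46 against cerebellum (4.06%). Rplp2 differed by 2.43 from white matter, where it was at 99.3, 109 and 160 RPKM (lowest, median, highest), and by 2.71 from cerebellum, where it was at 51.6, 96.6 and 156. Rpl38 differed by 2.49 from white matter and 2.50 from cerebellum, and Rps21 by 2.18 and 2.50. Rpl5 differed by -0.33 and -0.28 and Rps15a by 0.46 and 0.30, none called. Rps2, not called against cortex or white matter, was higher than in cerebellum by 0.96 (limma adjusted p = 0.029).

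Coding length moved with these differences. The members had a median coding length of 462 bases (75 to 1257) and the other 13902 tested genes of 1410. Between spinal cord and cortex, other genes of at most 300 bases had a median difference of 0.70, those of 300 to 600 bases 0.41, those of 600 to 1200 bases -0.09 and those of 1200 to 2400 bases -0.50. The members in the same bins had medians of 2.60 (10 genes), 1.59 (47), 1.16 (21) and 0.58 (2). In each bin the median of the members lay above that of the other genes. Single members, such as Rps15a (390 bases, 0.10), lay below the median of the other genes in their bin. Across the 80 members, length and difference had a Spearman rho of -0.567, a description over genes that share libraries and depth. With each library's trend on coding length removed, 68 members were higher in spinal cord than in cortex (median 1.33), 58 than in white matter (0.96) and 56 than in cerebellum (1.06). Of all genes, 39.4%, 25.8% and 20.1% were called in either direction under this setting. Then Rplp2 differed from cortex by 2.89, Rpl38 by 2.48, Rps21 by 2.31, Rpl41 by 1.78 and Rpl5 by 0.07.

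**Figure D3:**
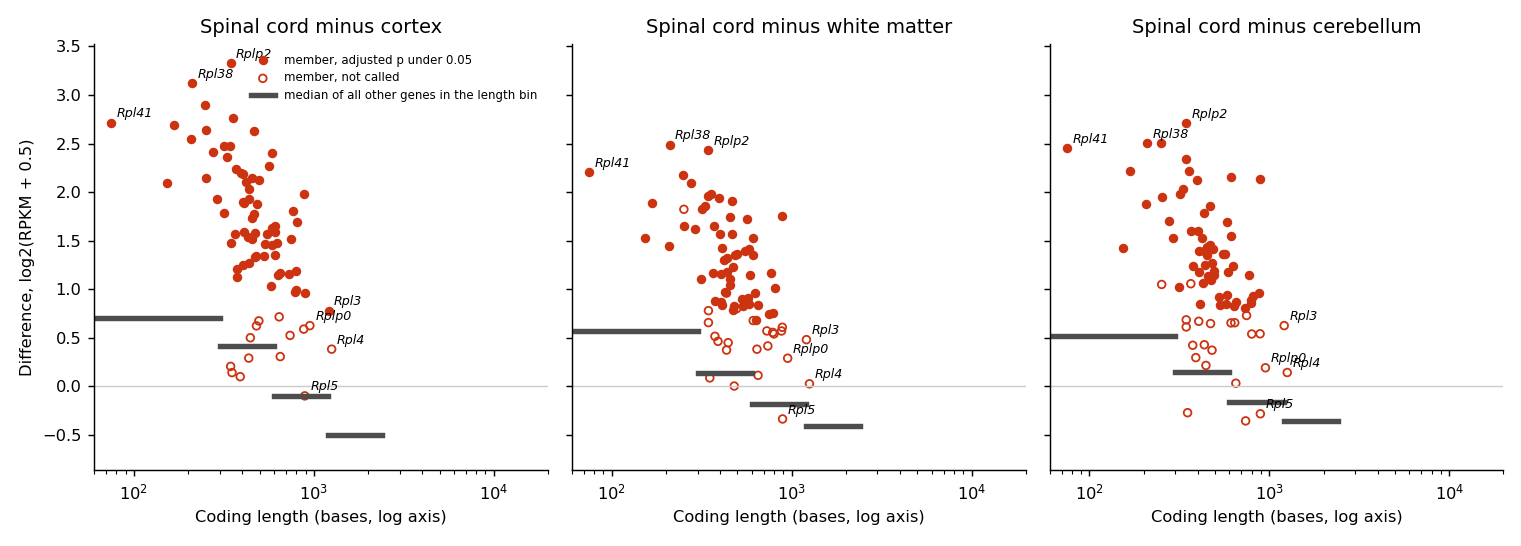
Difference between spinal cord and each other region (y axis, log2 of RPKM + 0.5) against coding length (x axis, bases, log axis) for the 80 tested members, with filled points where the adjusted p was under 0.05; grey bars are medians of all other genes in a length bin (drawn to 2400 bases). Shorter members lie higher, and most members of each length lie above the grey bar.

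Depth also differed between libraries, and the 2 shallowest spinal cord libraries, replicates 7 and 4, had the highest shares. With log2 depth as a covariate, 66 members were higher than in cortex (median 1.49), 43 than in white matter (0.89) and 25 than in cerebellum (0.76), beside 44.7%, 27.8% and 15% of all genes called in either direction. Depths of spinal cord (up to 12.99 M) and cerebellum (from 12.02 M) barely overlapped, so depth and region can hardly be told apart for that pair. There the SE of Rplp2 rose from 0.297 to 0.349 with the covariate. With the length trend removed and depth as a covariate together, the counts were 66, 49 and 34. Of all genes, 40.4%, 25.2% and 12.9% were then called in either direction. Without spinal cord replicates 4 and 7 the member counts were 59, 37 and 36, with medians of 1.33, 0.86 and 0.93, and no member was called lower. The share of all genes called without these libraries is not given here, so these counts are not a result about the members alone. Cortex replicates 4, 6 and 7, of 5.80 to 6.40 M reads, had shares of 0.261%, 0.229% and 0.542%. Slopes on length (log2 per doubling of length) were fitted over the other tested genes, to deviations from each gene's mean over all TRAP libraries. Their signs are therefore relative to the other libraries. The slope was -0.237 to -0.0714 in spinal cord and 0.113 to 0.225 in cortex, except for replicate 7 at -0.0522. White matter replicate 2, high in share, had the lowest slope of its group (-0.138), and cerebellum replicate 2, low in share, the highest of its group (0.150). What sets the slopes was not tested.

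All 5 oligodendrocyte markers were also higher in spinal cord than in cortex (median 2.38). Their sum, like the ribosomal protein share, was higher in every spinal cord library than in any other TRAP library. The nearest libraries were white matter replicate 3 at 22513 RPKM, with a ribosomal protein share of 0.361%, and spinal cord replicate 8 at 22742 RPKM, with a share of 0.681%. The part of the marker level in the member differences was not tested. The 5 markers were all called higher in cerebellum than in cortex, where 12 members were, and 4 of 5 in white matter than in cortex, where 1 member was. Between spinal cord and white matter 2 of 5 markers were called higher (median 0.92), and between spinal cord and cerebellum 1 of 5 (median 0.67).

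Far fewer members passed between the other regions. In cerebellum 12 of 80 members were higher than in cortex and 0 lower, beside 11.5% of all genes called higher and 13.1% lower, with a median of 0.43. The 3 highest were Rps27l at 1.59 (SE 0.46, limma adjusted p = 0.012), Rps10 at 0.94 and Rpl18 at 0.90, and the lowest called included Rpl8 at 0.66 and Rpl24 at 0.68. No member had all cerebellum libraries above all cortex libraries (4.63% of all genes did). In white matter only Rps9 was called (beside 3.28% of all genes called higher and 2.11% lower), with a median over members of 0.49. Rps9 was at 82.2, 136 and 196 RPKM in white matter (lowest, median, highest) and at 49.7, 60.7 and 85.0 in cortex, a difference of 0.99 (SE 0.21, limma adjusted p = 0.0064). Rplp2 just missed with 0.90 (limma adjusted p = 0.0502).

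These counts moved most with cortex replicate 7. Without it, 30 members were higher in cerebellum than in cortex (median 0.61), where 24.4% of all genes were called in either direction. In white matter 19 were higher (median 0.67), beside 5.72% of all genes. Between cerebellum and white matter no member was called, beside 9.76% of all genes in either direction, and the median was -0.03. For that pair 0 members had an unadjusted p under 0.05, beside 19.9% of all genes. Voom on recovered reads also called 0, beside 12% of all genes. The smallest p belonged to Rpl7l1 (0.77, limma adjusted p = 0.33), Rpl15 (-0.63) and Rps15 (-0.46).

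**Figure D4:**
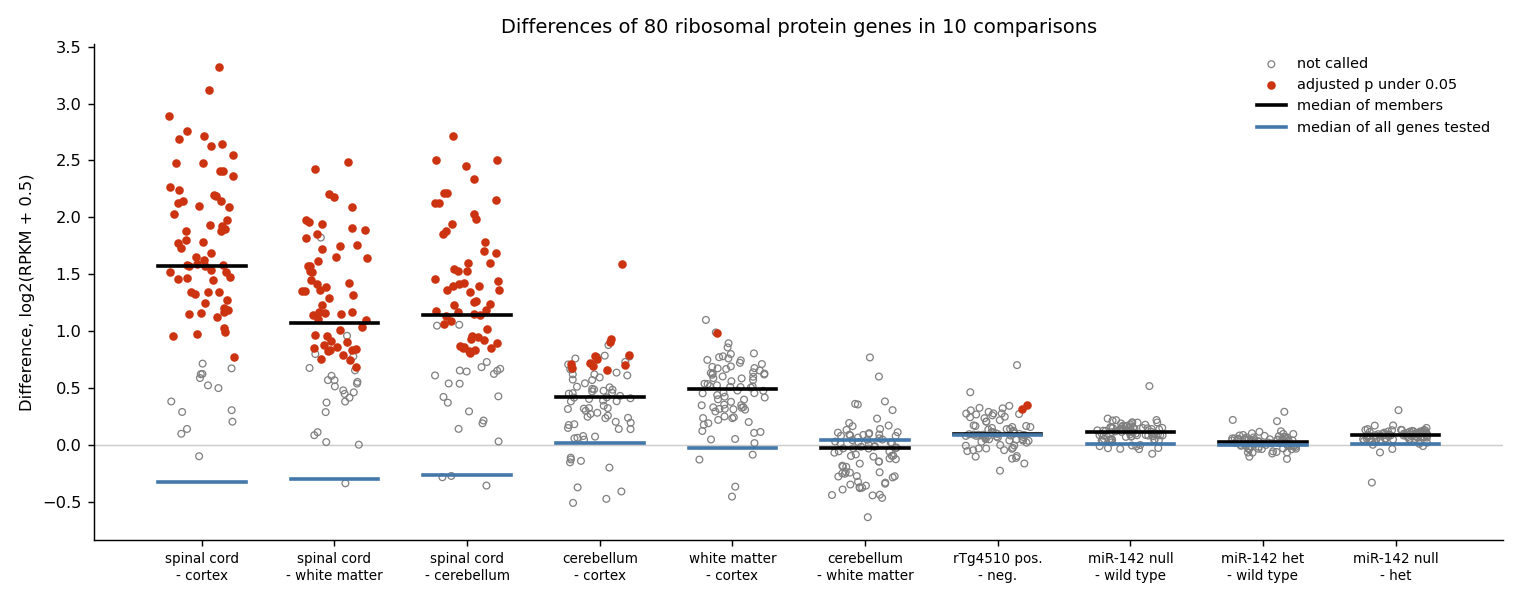
Differences of the 80 tested members (y axis, log2 of RPKM + 0.5; points, filled where the adjusted p was under 0.05) in 10 comparisons (x axis), with the median of the members in black and of all genes tested in blue. The 3 spinal cord comparisons stand apart with medians of 1.58, 1.07 and 1.15, and the bulk cortex comparisons lie near 0.

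Few ribosomal protein genes differed in rTg4510-positive frontal cortex. Only 2 of 80 members were called, both higher, beside 5.77% of all genes called higher and 1.65% lower. The median member difference was 0.10 and that of all genes 0.09. Rpl7a, a large-subunit protein, was at 293, 273 and 286 RPKM in negative libraries and at 348, 355 and 362 in positive ones, a difference of 0.32 (SE 0.07, limma adjusted p = 0.038). Rps16 was at 154, 148 and 141 RPKM in negative and 205, 177 and 185 in positive libraries, a difference of 0.35 (SE 0.08, limma adjusted p = 0.046). Both genes separated the groups completely. So did 25 members in that direction, beside 23.3% of all genes, and 1 in the other, beside 8.32%.

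The calls changed with single libraries and with the processing. Without any 1 of 5 of the 6 libraries no member was called, and without positive replicate 1, 11 were, beside 17.2% of all genes in either direction. Quantile scaling, median-of-ratios scaling and depth as a covariate each left 0 calls, and removing the coding length trend left 1 member called lower, with a median of -0.10. Rpl27, next in order, was at 86.9, 75.6 and 73.4 against 101, 96.0 and 103 RPKM (difference 0.35, limma adjusted p = 0.056). Microglial markers were higher in 4 of 5 (sums of 189 to 223 RPKM in negative and 424 to 546 in positive libraries), and their part in the values of Rpl7a and Rps16 was not tested.

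Rpl35a, a large-subunit protein, took 2 separate levels in this table. It was at 58.5, 161 and 57.2 RPKM in negative replicates 1, 2 and 3 and at 155, 169 and 54.2 in positive ones. The high and the low level each occurred in both genotypes, and its coefficient of variation was the largest of the members, 64.4% in negative and 49.7% in positive libraries. The genome annotation (GENCODE vM21) names 6 pseudogenes of Rpl35a, and how the counting treated reads shared with copies is not given in the sources used here.

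Loss of miR-142 came with no called ribosomal protein gene. Between null and wild-type prefrontal cortex 0 of 80 members passed, beside 0.468% of all genes, while 23 (28.7%) had an unadjusted p under 0.05, beside 22.6% of all genes, and voom on recovered reads called 0. The median difference was 0.12, against 0.01 for all genes, and 72 members (90%) were positive, against 53% of all genes. Other genes of the members' lengths had medians of 0.12 (up to 300 bases) and 0.08 (300 to 600 bases), beside 0.11 and 0.12 for the members. From 600 to 1200 bases other genes had a median of 0.03, beside 0.10 for 21 members. From 1200 to 2400 bases it was 0.006, beside 0.12 for 2 members. Rps13 came nearest, at 90.8, 93.4, 81.9 and 93.7 RPKM in wild type and 102, 94.0, 115 and 103 in null libraries (difference 0.20, SE 0.06, limma adjusted p = 0.091). Its null libraries all lay above the wild-type ones, null replicate 2 by the least. Rpl23 (0.22, limma adjusted p = 0.094) and Rpl17 (0.18, limma adjusted p = 0.099) followed, and in both null replicate 2 fell among the wild-type libraries. Without null replicate 2, 19 members were called, all higher, beside 4.66% of all genes in either direction.

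Heterozygotes carry a single disrupted miR-142 copy. No ribosomal protein gene was called between them and the wild type, beside 0% of all genes, with 0 calls by voom and a median of 0.03. An unadjusted p under 0.05 was found for 0 members, beside 7.26% of all genes. Rps13 was at 95.7, 97.3, 98.3 and 100.1 RPKM in heterozygotes (difference from wild type 0.12, limma adjusted p = 0.68). Between null and heterozygotes 0 members were called as well (0% of all genes), and 0 by voom, with a median of 0.09. There 4 members (5%) had an unadjusted p under 0.05, beside 3.29% of all genes. The 3 comparisons share libraries. The titles carry a letter and number code whose meaning is not given. With its letter as a covariate no member was called. The M14 libraries include no wild type, so within them only null and heterozygotes were compared, and no member was called. Every null library carries a number that no wild-type library has, so code number and genotype cannot be told apart in that pair.

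Several members have paralogs that replace them in some cells. Rpl39l, best known from testis, differs from Rpl39 in 23 of the 156 coding bases (85.3% identical), with a longest shared run of 38 bases. The coding sequences (GENCODE vM21, GRCm38; Rpl39 in chrX:37082520-37085402, minus strand, and Rpl39l in chr16:10170226-10174911, plus strand) are shown because a read must cover a differing base to tell the genes apart; capitals mark those bases.
Rpl39: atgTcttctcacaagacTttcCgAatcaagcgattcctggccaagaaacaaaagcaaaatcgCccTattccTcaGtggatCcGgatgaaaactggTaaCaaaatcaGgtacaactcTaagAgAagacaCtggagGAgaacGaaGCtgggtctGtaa
Rpl39l: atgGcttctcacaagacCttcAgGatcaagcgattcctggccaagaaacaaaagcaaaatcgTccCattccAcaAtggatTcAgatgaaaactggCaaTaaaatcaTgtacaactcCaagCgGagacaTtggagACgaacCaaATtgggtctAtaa
Spinal cord replicate 7 had 48 reads of Rpl39l (96.2 RPKM) beside 60 of Rpl39 (120 RPKM). Replicate 5 had 1 read (0.600 RPKM), and Rpl39l was at 0 in the other 22 TRAP libraries. The shallowest TRAP library was therefore the one with the paralog. Rpl39 itself was at 117, 93.4, 86.4, 120 and 142.1 RPKM in spinal cord and at 7.33 to 94.9 in cortex, a difference of 2.09 (limma adjusted p = 0.00016).

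Rps27 and Rps27l, whose coding sequences are 76.1% identical with no shared run over 11 bases, both had higher values in spinal cord. Rps27l, a p53 target, was at 40.3, 83.6, 46.2, 63.2 and 46.0 RPKM in spinal cord and at 2.09, 7.79 and 28.5 (lowest, median, highest) in cortex. The groups did not overlap, and the difference was 2.64 (limma adjusted p = 8.3e-05). Rps27 was at 5.50, 115, 3.64, 6.08 and 35.7 RPKM in spinal cord and at 0.620 to 11.1 in cortex. Its difference of 2.14 (SE 0.68, limma adjusted p = 0.012) rested on replicate 4 and was 1.40 without it (limma adjusted p = 0.068). The RNA-binding paralogs Rpl22 and Rpl22l1 both rose, by 1.88 (limma adjusted p = 4.7e-05) and 1.57 (limma adjusted p = 0.0024). Rpl7l1, a paralog found in assembling subunits, did not pass (0.53). Rpl3l, a muscle form of Rpl3, reached 22 reads (0.576 RPKM) in cerebellum replicate 7. Rpl10l, a retrogene of Rpl10 active in testis, was at 0 in all 42 libraries, which allows up to 3 reads in each, counting error only.

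The members varied far more between TRAP libraries than between bulk libraries. The median coefficient of variation over the 80 tested members was 47.6% in cortex, 37.0% in spinal cord, 31.6% in white matter and 27.2% in cerebellum. It was 5.04% to 8.70% in the 5 bulk groups. The errors of the differences followed, with an SE of 0.29 for Rplp2 between spinal cord and cortex and of 0.07 for Rpl7a between the rTg4510 groups.

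Set side by side without a test, the tables also ranked some members differently. In TRAP cortex Rps28 had a mean of 4.54 RPKM, Rps12 of 11.8 and Rps29 of 15.998, while in rTg4510-negative frontal cortex the means were 372, 455 and 788. Rpl29 was at 28.9 RPKM in TRAP cortex, 24.2 in rTg4510-negative and 139 in miR-142 wild-type cortex, and Rps18 at 28.7, 52.9 and 151. Rpl35a followed with 27.1, 92.1 and 218. Rpl26, Rpl30, Rpl34 and Rps27 were low in the bulk tables, although all 4 encode standard ribosomal proteins, and Rpl26 had means of 1.04 to 3.34 RPKM over all 9 groups. The TRAP table comes from ribosome-bound RNA and the other 2 from whole tissue, and the labels do not say which library kit and read length each table had, so their part in the ranks was not tested.

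**Figure D5:**
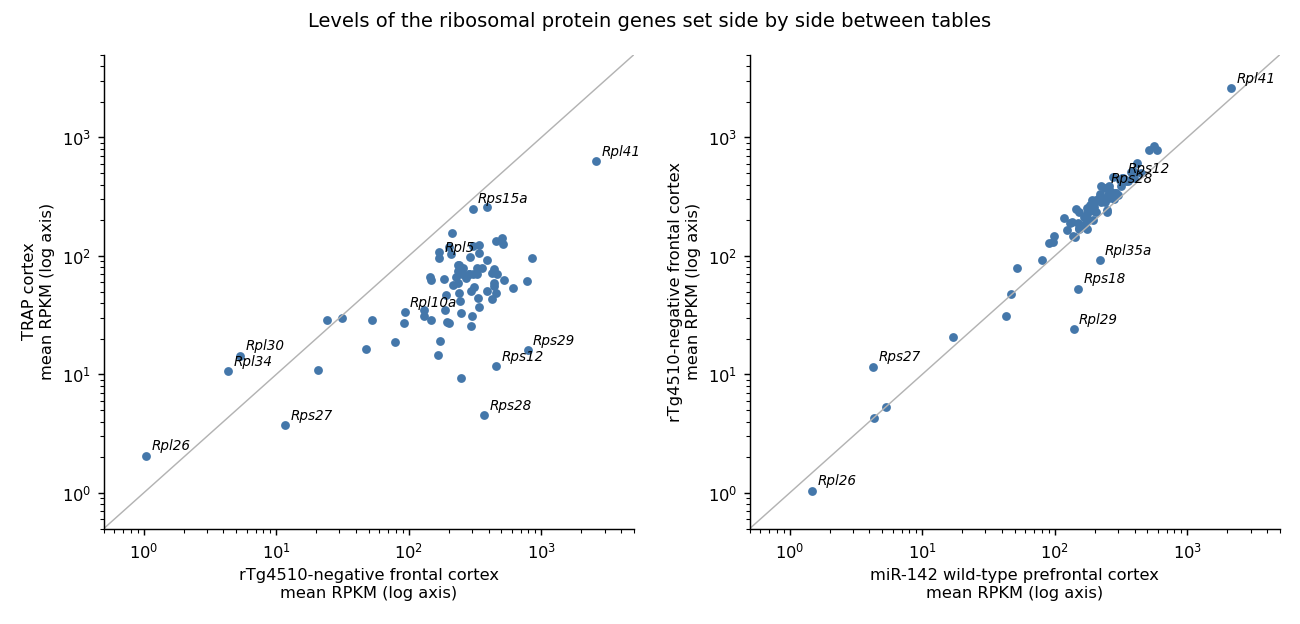
Mean RPKM per group (both axes log) of the members above 0.5 RPKM, TRAP cortex against rTg4510-negative frontal cortex (left) and the latter against miR-142 wild-type prefrontal cortex (right), with the line of equal values. Rps12, Rps28 and Rps29 lie far below the line on the left, and Rpl29, Rps18 and Rpl35a below it on the right.

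Among the ribosomal proteins outside the symbol rule, Fau was higher in spinal cord than in cortex by 2.46 (limma adjusted p = 3.9e-08) and Rpl36al by 1.78, while Rack1 differed by 0.47 (limma adjusted p = 0.13). The other lists of translation genes had lower medians than the members. Mitochondrial ribosomal proteins, which serve the separate ribosome of mitochondria, were higher in 25 and lower in 5 of 77 (median 0.56), beside 16.2% of all genes higher and 27.5% lower. Other mRNAs known to carry a TOP motif were higher in 9 of 17 and lower in 0 (median 0.89), among them the elongation factor subunits Eef1b2 (2.47) and Eef1d (1.57) and the nascent chain protein Btf3 (2.26). Initiation factors were higher in 9 and lower in 4 of 26 (median 0.57), with Eif1 at 1.62 and Eif4h at 1.47. Of the 7 elongation genes, some of them in the TOP list too, 4 were higher and 2 lower, the lower ones including the elongation factor kinase Eef2k (-2.05).

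The lists of genes that make ribosomes and of those that control TOP mRNAs lay near or below the median of all genes, which was -0.33 with 16.2% called higher and 27.5% lower. Ribosome biogenesis genes were higher in 5 and lower in 8 of 38 (median -0.23), with the snoRNP protein Gar1 at 2.10 and the export adaptor Nmd3 at -2.13. RNA polymerase I genes were higher in 1 and lower in 3 of 12 (median -0.37), Polr1d at 1.31 and the initiation factor subunit Taf1b at -2.09. Regulators of TOP translation were higher in 0 and lower in 7 of 13 (median -0.91), among them Tia1 at -2.58, the S6 kinase gene Rps6kb1 at -1.58 and Mtor at -1.44, while Larp1 differed by 0.10 and was not called. The part of coding length in these list medians was not tested.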

How the data were processed

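RPKM (reads per kilobase of coding sequence and per M counted reads) were computed and deposited by the authors in 3 tables. STAR (aligner), HTSeq (counter) and the mm10 build are named in the submitters' processing notes, with no versions given in the sources used here. Libraries were made, per the labels' protocols, either with NuGEN amplification and RiboZero (50 bp pairs) or with TruSeq Stranded and RiboZero Gold (75 bp pairs). The labels give 50 bp for an M dataset and 75 bp for T and P datasets. They do not tie these letters or kits to the tables by name. Ribosomal protein genes have many processed pseudogenes, so their counts are uncertain where reads match several copies.

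Whole reads were recovered from the steps between values of a gene. All 18782 of 18782 genes above 0 gave whole reads within 0.005, and 82.7% of the recovered lengths were at most 5% away from a GENCODE vM21 coding length. Depth and coding length come from this step, and no pair of libraries was identical.

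Genes that reached 0.5 RPKM in 5 or more TRAP libraries, 3 or more of the rTg4510 table or 4 or more of the miR-142 table were tested with limma 3.58.1 in R 4.3.3 (trend and robust) on log2(RPKM + 0.5), each table separately with all its groups, with Benjamini-Hochberg adjustment over all genes tested and a threshold of 0.05. Differences are on this scale, which understates changes of low genes. Sums, shares and figures used Python 3.11.15, pandas 2.3.3, NumPy 2.4.6, SciPy 1.17.1 and matplotlib 3.10.9. The steps were tested on simulated data.

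The members, the related lists and the rules were chosen with earlier results of these data known. In each comparison the named members are the 3 highest and the 3 lowest called, or the 3 with the smallest p where fewer than 3 were called, together with a preset set of 24 genes (stalk proteins, paralogs and well-known members). Rps15a, Rpl10a, Rpl4, Rps2, Rpl12, Rpl27a, Rpl29, Rpl30, Rpl34, Rps20, Rps29, Rps28, Rps12, Rps18 and Rpl35a lie outside this rule where they are described and were chosen after their values were seen. The related lists name up to 3 genes with the smallest p, and Larp1 was added after its value was seen. Some genes that the rule or a list would name are not reported here, and the marker sums and marker counts were computed without them, while counts and medians over the members cover all tested members. Alternatives were other pseudocounts, no filter, quantile and median-of-ratios scaling, removal of the coding length trend (spline of 5 degrees of freedom), log2 depth as a covariate, voom on recovered reads, fits on only the groups compared, a replicate block, the title letter, leaving out each library, and leaving out spinal cord replicates 4 and 7. Removing the length trend with depth as a covariate was added after seeing the data.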

Additional observations from a re-analysis of the deposited data

Results flagged for a closer look

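Of 126 sets of 4 to 7 libraries of a group, 23 had a library far from the others by Dixon's test at 95%. These sets share libraries, and some of their genes were chosen after their values were seen. The rate of about 1 in 20 by chance therefore does not apply to the count of 23. Cortex replicate 7 accounted for 9 of the 23. Its share of ribosomal protein reads was 0.542% (others 0.220% to 0.287%), and it held Rplp0 at 135 RPKM (others up to 65.8), Rplp2 at 152 (up to 65.2), Rpsa at 144 (up to 70.4), Rpl38 at 208 (up to 46.2), Rpl41 at 2089 (up to 438), Rpl5 at 165 (up to 97.1), Rps15a at 366 (up to 265) and Rps28 at 12.8 (up to 5.83). Both long and short members were raised in it.

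White matter replicate 2 had a share of 0.573% (others 0.312% to 0.400%) and Rpsa at 133 RPKM (others up to 78.5). Cerebellum replicate 2 lay below its group, with a share of 0.248% (others 0.346% to 0.401%), Rps6 at 29.3 RPKM (others from 49.6), Rps27l at 10.2 (from 27.3) and Rps9 at 74.7 (from 108). White matter replicate 3 had Rps27l at 59.4 RPKM (others up to 18.1), and white matter replicate 7 had Rps28 at 12.998 (others up to 7.94).

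Rps27 was at 11.1 RPKM in cortex replicate 5 (others up to 4.10) and at 115 in spinal cord replicate 4 (others up to 35.7). Rpl39l was at 96.2 RPKM in spinal cord replicate 7 (others up to 0.600). In the miR-142 table, wild-type replicate 4 had Rps21 at 384 RPKM (others up to 333), and null replicate 2 was low for Rps21 at 323 (others from 374) and for Rpl35a at 201 (others from 246).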

How the results depend on the processing

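Counts of members called higher between spinal cord and the other regions kept their direction under every alternative run. Settings also change the calls over all genes, so a count given in this section without that share is not a result about the members alone. Against white matter the count of 56 fell to 37 without spinal cord replicates 4 and 7. Against cerebellum 57 fell to 25 with depth as a covariate, 34 with the length trend removed as well, and 36 without those 2 libraries. Calls over all genes against cerebellum, in either direction, fell from 22.6% to 15% with depth and 12.9% with both. Median-of-ratios scaling gave 72, 66 and 64 against cortex, white matter and cerebellum, beside 43.5%, 27.5% and 21.4% of all genes in either direction. Leaving out 1 library gave 64 to 70, 43 to 58 and 47 to 60. For cerebellum against cortex the count of 12 became 7 with the length trend removed, 19 with depth, 2 with both, and 6 to 30 with 1 library left out (30 without cortex replicate 7, 19 without cerebellum replicate 2, 7 without cerebellum replicates 3, 6 or 7, and 6 without cerebellum replicates 5 or 8 or cortex replicates 2, 5 or 6). For white matter against cortex the count of 1 became 2 at a pseudocount of 1, 3 with quantile scaling, 4 with depth, 2 with both corrections, 3 with only the groups compared, 5 without spinal cord replicates 4 and 7, and 1 to 19 with 1 library left out (19 without cortex replicate 7, 6 without white matter replicate 7, 4 without cerebellum replicate 2, 3 without spinal cord replicate 4 or 7, 2 without cerebellum replicate 3 or spinal cord replicate 3). Of all genes, 24.6% were called in either direction for cerebellum against cortex with the length trend removed, 18.5% with depth and 17.7% with both. For white matter against cortex it was 5.64% at a pseudocount of 1, 8.28% with quantile scaling, 5.69% with depth and 5.34% with both. Cerebellum against white matter gave 0 to 0, and the test over all regions (65 of 80 members) 61 to 67.

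For rTg4510 the 2 calls became 1 with no filter, 0 with quantile scaling, 0 with median-of-ratios scaling, 0 with depth and 1 with voom. With the length trend removed, alone or with depth, 1 member was called and it was lower, with a median of -0.10 in both; the cause was not tested. Leaving out 1 library gave 0 to 11. Null against wild type gave 0 to 19, and the other miR-142 comparisons 0 to 0. Among the values of single members under alternatives, 6595 kept their side of the threshold, 231 lost the call, 85 gained it, 48 that were not called changed sign by more than their SE and 0 called values reversed.

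The replicate block gave 67, 46 and 51 members for spinal cord against cortex, white matter and cerebellum, 9 for cerebellum against cortex, 1 for white matter against cortex, 0 for cerebellum against white matter and 63 over all regions. Over 31 same-numbered pairs of TRAP libraries the deviations correlated at -0.236 to 0.272 (median 0.0603). Over 184 pairs with different numbers they correlated at -0.282 to 0.354 (median -0.022). The numbers were not taken as pairs in the main fit, and these values do not settle whether they name animals. Low depth limits the lowest members most, such as Rpl26, Rps27 and Rpl39l.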
